A study of Mus musculus with 24 samples.

Results

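6 genes of the STAT family of transcription factors, Stat2, Stat3, Stat4, Stat5a, Stat5b and Stat6, were followed across 24 RNA-seq libraries of MIN6 cells, a mouse insulinoma line with the features of pancreatic β cells. They were chosen by gene symbol from the deposited count table, and they make up 6 of its 17696 genes. The libraries fall into 6 groups of 4. All lines carried a lentiviral vector with puromycin selection: Scr cells a scrambled sequence, ZIP cells an inhibitor of miR-146a-5p, and OE cells a vector that overexpresses miR-146a-5p. Scr, ZIP and OE cells were untreated, whereas Scr+Cy, ZIP+Cy and OE+Cy cells received 5 ng/mL IL1β, 100 ng/mL IFNγ and 10 ng/mL TNFα for 24 h. The lines were grown from picked single clones, and the study's methods give a green reporter for the Scr and ZIP vectors and a red one from another maker for OE. A difference between lines can therefore not be told apart from a difference between clones or vectors. The level of the microRNA itself was not analysed here.

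STAT proteins wait in the cytoplasm until a receptor-bound Janus kinase (JAK) phosphorylates them, then pair up and enter the nucleus to bind DNA. Stat2 joins Irf9 in the ISGF3 complex of the interferon response. Stat3 carries signals of the interleukin-6 family, Stat4 those of interleukin-12, Stat6 those of interleukin-4 and interleukin-13. The closely related Stat5a and Stat5b act below the receptors for prolactin and growth hormone, which in β cells are known for their part in growth during pregnancy. A large share of STAT regulation is by phosphorylation, which RNA levels do not show.

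The sequence of mouse miR-146a-5p is shown first because the ZIP and OE vectors were made for it, and its seed (bases 2 to 8) is in capitals. The mature microRNA lies at chr11:43374435-43374456 on the minus strand (RefSeq, GRCm38.p6, the build also called mm10). The bases opposite the seed read AGTTCTC in DNA letters. In the 3′ untranslated regions of GENCODE M21 coding transcripts, these 7 bases were found in Stat2 and in no annotated transcript of the other 5 genes. Of 15451 genes of the table with such a region, 13.1% held the site. The Stat2 match lies at chr10:128291847-128291853 on the plus strand, and it is printed with its flanks, the 7 bases in capitals. A match is a description of letters and does not show that the site is used.
miR-146a-5p: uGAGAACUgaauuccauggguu
Stat2 site: ctgggcccttcAGTTCTCtcttccagtta

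The start of Stat2 is shown because Stat2 had the largest log2 cytokine response of the 5 genes above 1 CPM. The RefSeq window of 300 bases around the transcript start runs over chr10:128270248-128270547 on the plus strand. It was searched on both strands for GAAA followed after any 2 bases by GAAA, a spacing typical of interferon-stimulated response elements (ISRE-type motif), and for TTCNNNGAA and TTCCNGGAA, the palindromic forms bound by most STAT dimers. The second palindrome is a special case of the first. Capitals mark the ISRE-type match, which reads on the minus strand and lies 222 to 213 bases before the start. Over all 32851 windows, the ISRE-type motif occurred in 3.44%, TTCNNNGAA in 8.30% and TTCCNGGAA in 1.15%. The 6 genes have 9 windows. None held either palindrome, and the only other ISRE-type match was in 1 of the 2 Stat4 windows.
Stat2 window: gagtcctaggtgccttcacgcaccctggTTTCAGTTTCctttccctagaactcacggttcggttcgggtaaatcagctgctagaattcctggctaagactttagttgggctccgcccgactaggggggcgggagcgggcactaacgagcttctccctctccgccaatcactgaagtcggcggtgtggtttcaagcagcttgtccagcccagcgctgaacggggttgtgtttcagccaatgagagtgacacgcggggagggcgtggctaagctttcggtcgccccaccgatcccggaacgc

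A stretch around a Stat5a start and an internal Stat5b start is shown because these neighbours, which lie head to head on chromosome 11, were the members most clearly lower in OE cells. The longest run of letters found in a window of both genes was 16 bases, in capitals, and it begins 32 bases before the Stat5a start and 23 bases before the Stat5b start. The last 100 bases of each window are printed, from chr11:100860434-100860533 on the plus strand for Stat5a and chr11:100822521-100822620 on the minus strand for Stat5b. This comparison was made after the sequences had been seen.
Stat5a start: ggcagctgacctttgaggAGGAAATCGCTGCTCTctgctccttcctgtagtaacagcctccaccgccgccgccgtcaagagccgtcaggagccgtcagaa
Stat5b start: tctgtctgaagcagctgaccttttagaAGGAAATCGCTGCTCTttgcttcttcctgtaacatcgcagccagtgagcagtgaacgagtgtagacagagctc

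On mm10, Stat2 spans chr10:128270498-128292853 (plus strand) and Stat6 spans chr10:127642986-127660987 (plus strand), 609510 bases apart. Stat5b (chr11:100780731-100850581, minus strand), Stat5a (chr11:100859351-100885169, plus strand) and Stat3 (chr11:100886806-100939540, minus strand) follow each other, with 8769 and 1636 bases between them. Stat4 spans chr1:51987148-52107189 on the plus strand. In GENCODE M21 72 exonic bases of Stat5a are shared with Stat3 and 40 of Stat6 with Nab2, in both cases on opposite strands, and 1033 of Stat4 with Gm28177 on the same strand. The authors counted on RefSeq, and by the gene spans in their table Stat6 overlaps Nab2 and Stat2 overlaps Apof. No such overlap was found there for Stat3, Stat4, Stat5a or Stat5b. Whether their counting used the strand is not given in the sources used here, so reads in shared bases could have gone to either gene. Apof, with a highest group mean of 37.8 CPM, fell by 3.94 on the log2 scale in OE against Scr and rose by 2.52 in Scr+Cy against Scr. Its part in the Stat2 counts was not tested. Stat5a and Stat5b are near-identical in parts of their coding sequence, so their split is uncertain to that degree.

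Each library held 26657792 to 37168232 reads assigned to genes, and levels are CPM, read counts scaled by TMM library size. Means have their SD (n = 4). All 12 β cell markers checked, Ins1, Ins2 and Pdx1 among them, reached 1 CPM in every group. Of the markers of other cells, Gcg, the glucagon gene of alpha cells, was the highest, at 6.44 to 369 CPM. Fibroblast and nerve genes stood higher in replicate 1 of 3 groups. The 6 fibroblast markers summed to 58.7 CPM in Scr+Cy replicate 1, 54.0 CPM in ZIP replicate 1 and 18.9 CPM in Scr replicate 1, against at most 6.04 CPM in any ZIP+Cy, OE or OE+Cy library. The 4 nerve markers summed to 172 CPM in Scr+Cy replicate 1 and 96.3 CPM in ZIP replicate 1. Of 8 lymphocyte markers only 3 are listed in the table, and of these Lck alone passed 1 CPM. Their part in the results below was not tested. The labels give the libraries of each replicate number a shared code, P65 for replicate 1 to P68 for replicate 4, whose meaning they do not state. Whether the 4 libraries of a group came from separate cultures is thus not stated, and p values measure the spread between these libraries, which may be technical.

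Per kilobase of the longest coding transcript, Stat5b was the most abundant of these 6 STAT genes in Scr cells, at 23.8 ± 0.370 CPM per kb (SD, n = 4). Stat3 followed at 17.7 ± 1.85 CPM per kb. This order rests on the lengths used, 5213 bases for Stat5b and 6042 for Stat3. The coding transcripts of Stat3 have 3′ untranslated regions of 24 to 3701 bases, and which of them the cells used was not tested. Stat6 at 7.11 ± 1.06, Stat2 at 6.71 ± 0.820 and Stat5a at 5.88 ± 0.512 CPM per kb stood close together. Stat4 was close to nothing at 0.00503 ± 0.00582 CPM per kb. In OE+Cy cells the order was another: Stat3 stood at 78.0 ± 2.21 and Stat2 at 70.4 ± 9.70 CPM per kb, Stat6 at 14.3 ± 1.56, Stat5b at 13.9 ± 1.57 and Stat5a at 5.36 ± 0.549.

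**Figure D1:**
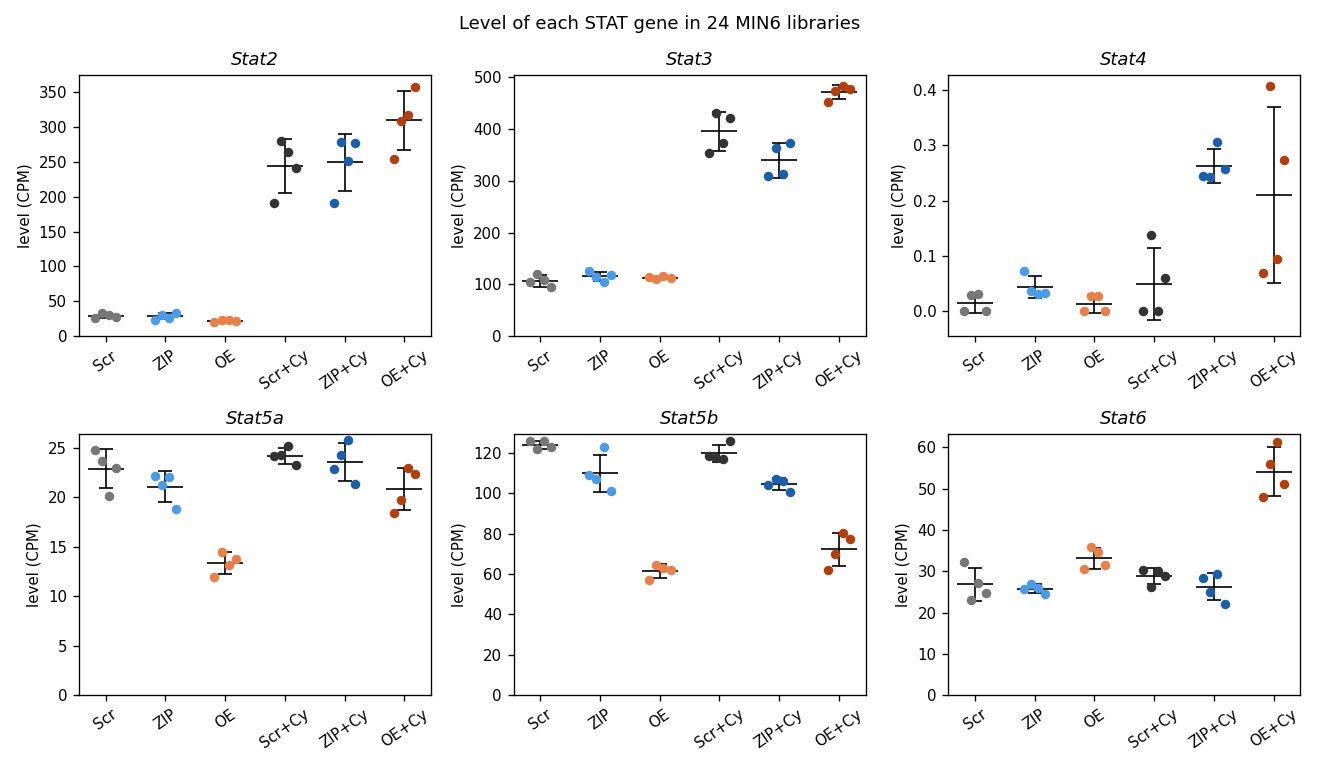
CPM (y axis, linear, a separate scale for each gene) of each STAT gene in the 4 libraries of each group (points), with the mean and SD (bars). Stat2 and Stat3 are high in all treated libraries, Stat5a and Stat5b are lowest in OE, Stat6 is highest in OE+Cy, and Stat4 stays at or under 0.406 CPM.

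The first question was which STAT genes respond to cytokines. In Scr cells Stat2 and Stat3 rose and no member fell. These are 2 of 6 genes called at an adjusted p under 0.05, all tests here being edgeR's quasi-likelihood test with Benjamini-Hochberg adjustment over 17696 genes. Of all genes, 17.8% were called in this comparison, 10.5% higher and 7.33% lower. In ZIP cells Stat2, Stat3 and Stat4 rose (3 of 6, against 26.4% of all genes called, 13.6% higher and 12.8% lower). In OE cells all 6 rose, although 44.6% of all genes were called there, 23.0% higher and 21.5% lower. The median log2 fold change of the 6 genes was 0.80 in Scr, 0.86 in ZIP and 1.39 in OE, beside 0.00230, -0.00657 and 0.0243 over all genes. It depends on Stat4, which had few reads, and over the other 5 members it was 0.10, 0.16 and 0.71. Leaving Stat4 out was chosen after seeing the data.

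Stat2 stood at 25.9, 33.7, 31.2 and 27.1 CPM in Scr replicates 1 to 4, at 23.7, 31.1, 26.8 and 32.8 in ZIP and at 20.3, 23.0, 23.15 and 21.5 in OE. After cytokines it stood at 191, 280, 264 and 242 CPM in Scr+Cy, 191, 278, 252 and 276 for ZIP+Cy and 254, 308, 318 and 358 for OE+Cy. Every treated library lay above every untreated library, and replicate 1 was the lowest of each treated group. The log2 fold change was 3.05 (SE 0.14, adjusted p = 1.69e-14) in Scr, 3.12 (SE 0.14, adjusted p = 1.21e-14) in ZIP and 3.81 (SE 0.14, adjusted p = 2.62e-16) in OE.

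Stat3 stood at 104, 121, 109 and 94.3 CPM in Scr replicates 1 to 4, at 125.5, 114, 105 and 117.5 in ZIP and at 114, 110, 115.5 and 112 in OE. In treated cells it reached 354, 431, 373.5 and 422 CPM in Scr+Cy, 308.5, 363, 313 and 374 for ZIP+Cy and 452, 474, 483 and 476 for OE+Cy. Untreated groups overlapped, treated and untreated libraries did not, and all OE+Cy libraries lay above all others. The log2 response was 1.88 (SE 0.08, adjusted p = 3.78e-15) in Scr, 1.55 (SE 0.08, adjusted p = 1.16e-13) in ZIP and 2.06 (SE 0.08, adjusted p = 3.82e-16) in OE.

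**Figure D2:**
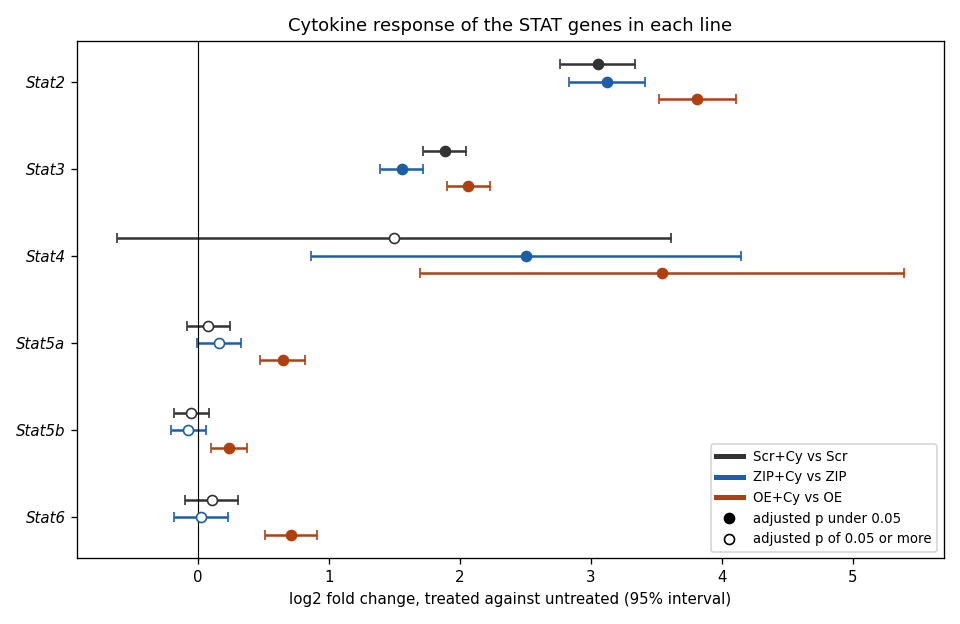
Log2 fold change of each STAT gene, treated against untreated cells of the same line (x axis), with 95% intervals from the edgeR fit; filled points passed an adjusted p under 0.05. Stat2 and Stat3 lie right of 0 in all 3 lines, while Stat5a, Stat5b and Stat6 passed the test in OE alone.

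Whether the response differed between lines was tested as an interaction. In OE against Scr, 4 of 6 genes had a larger response: Stat2 by 0.76 on the log2 scale (SE 0.19, adjusted p = 0.00480), Stat6 by 0.60 (SE 0.14, adjusted p = 0.00278), Stat5a by 0.57 (SE 0.12, adjusted p = 0.00108) and Stat5b by 0.29 (SE 0.09, adjusted p = 0.0296). Of all genes 20.0% were called in this test, 9.64% with a higher and 10.3% with a lower value. For Stat3 the difference was 0.18 with a 95% interval of -0.04 to 0.40. The Stat5b call was lost when any of 6 libraries was left out in turn (adjusted p up to 0.113) and when only the 4 groups compared were fitted (adjusted p = 0.0563). In ZIP against Scr no member was called, where 0.0565% of all genes were. The Stat3 difference there was -0.33 (95% interval -0.55 to -0.11, adjusted p = 0.526) in the edgeR fit.

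The second question was how the lines differed before treatment. In OE cells Stat5b and Stat5a fell most clearly, Stat2 fell and Stat6 rose, while Stat3 did not pass. These 4 calls (1 higher, 3 lower) stand beside 50.1% of all genes, 24.5% higher and 25.6% lower, so a call in OE was common in this table. The median over the members was -0.22 on the log2 scale, -0.42 without Stat4, and over all genes 0. Other markers moved with the line too. The 12 β cell markers summed to 42030 to 45810 CPM in OE against 20400 to 26640 in Scr. Not all of them were highest in OE, and Mafa had its highest value in Scr replicate 1. The 3 listed of 5 acinar and duct markers summed to 13.0 to 18.2 CPM in OE against 0.310 to 0.750 in Scr, with 1 of them, Krt19, at 1 CPM or more in OE. The 4 listed of 6 alpha, delta and PP cell markers summed to 48.7 to 57.8 CPM against 246 to 369. In Scr 1 of these 4, Gcg, reached 1 CPM, whereas in OE all 4 did, and Ppy and Sst had their highest values in OE libraries. Their part in the line differences was not tested.

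Stat5b stood at 126, 122, 126 and 123 CPM in Scr replicates 1 to 4, at 109, 107, 123 and 101 in ZIP and at 56.8, 64.2, 62.9 and 62.0 in OE. Every OE library was below every Scr and ZIP library. The change was -1.01 on the log2 scale (SE 0.07, fold 0.495, adjusted p = 3.89e-12). Under cytokines it stood at 119, 117, 117 and 126 CPM in Scr+Cy, 104, 107, 106 and 101 for ZIP+Cy and 62.1, 69.8, 80.4 and 77.2 for OE+Cy. OE+Cy again lay below both other lines without overlap, at -0.73 against Scr+Cy (SE 0.07, adjusted p = 1.46e-09). Cytokines raised Stat5b in OE by 0.24 (SE 0.07, adjusted p = 0.00488), with overlapping groups.

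Stat5a stood at 24.8, 23.6, 20.1 and 23.0 CPM in Scr replicates 1 to 4, at 22.1, 21.2, 22.1 and 18.8 in ZIP and at 11.9, 14.5, 13.1 and 13.8 in OE. No OE library reached the lowest Scr or ZIP value, and the log2 change was -0.78 (SE 0.08, fold 0.582, adjusted p = 2.17e-08). With cytokines the values were 24.1, 24.3, 25.1 and 23.2 CPM in Scr+Cy, 22.9, 24.3, 25.7 and 21.3 for ZIP+Cy and 18.4, 19.7, 22.9 and 22.3 for OE+Cy. Stat5a rose in OE by 0.65 (SE 0.08, adjusted p = 6.92e-07), so that OE+Cy came close to the other lines. Against Scr+Cy the difference was still -0.21 (SE 0.08, adjusted p = 0.0299). This call was lost with the DESeq2 Wald test (adjusted p = 0.0549), when only these groups were fitted and when any of 5 libraries was left out.

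Together Stat5a and Stat5b summed to 147 ± 2.32 CPM in Scr, 131 ± 10.4 in ZIP and 74.8 ± 4.27 in OE. The sum does not depend on how reads were split between them, and the OE range of 68.7 to 78.7 CPM lay below the Scr range of 145.6 to 150.5. With cytokines the sums were 144 ± 3.59, 128 ± 4.61 and 93.2 ± 10.3 CPM. The share of Stat5a in the sum was 15.55% ± 1.22 in Scr, 17.8% ± 0.567 in OE and 22.4% ± 0.348 in OE+Cy, whose range of 22.1% to 22.8% was above all other groups.

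**Figure D3:**
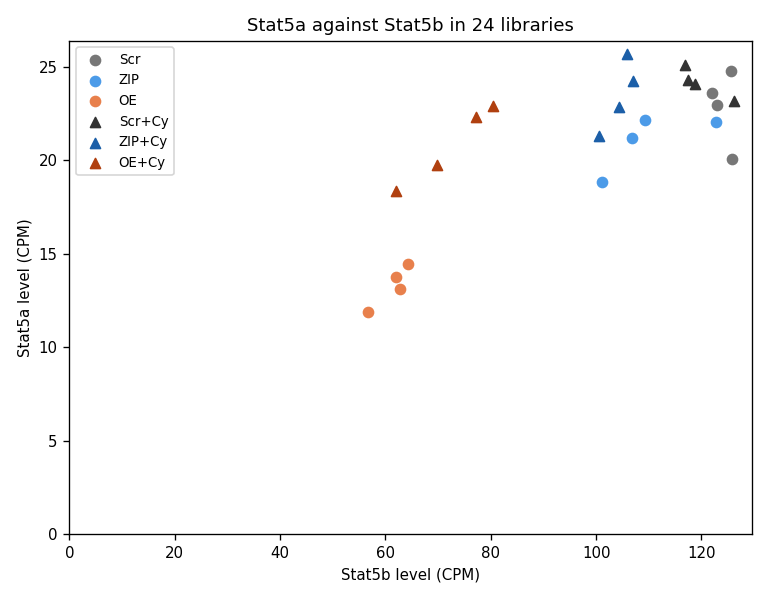
Stat5a CPM (y axis) against Stat5b CPM (x axis) in the 24 libraries, with circles for untreated and triangles for treated cells. The OE libraries sit at the lower left, at most 64.2 CPM of Stat5b and 14.5 CPM of Stat5a. The OE+Cy libraries have more Stat5a, 18.4 to 22.9 CPM, at 62.1 to 80.4 CPM of Stat5b.

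Stat6 stood at 32.3, 23.1, 27.2 and 24.7 CPM in Scr replicates 1 to 4, at 25.7, 27.0, 26.0 and 24.4 in ZIP and at 30.5, 35.9, 34.5 and 31.4 in OE. Scr replicate 1 overlapped with OE. The log2 difference between OE and Scr was 0.30 (SE 0.10, adjusted p = 0.0120), and without Scr replicate 2 it was 0.24 (adjusted p = 0.0570). In treated cells Stat6 was at 30.3, 26.1, 30.1 and 28.9 CPM in Scr+Cy, 28.3, 25.1, 29.4 and 22.1 for ZIP+Cy and 47.9, 56.1, 61.4 and 51.0 for OE+Cy. OE+Cy stood above all other libraries. Stat6 rose by 0.71 (SE 0.10, adjusted p = 1.63e-06) with cytokines in OE and was higher than in Scr+Cy by 0.91 (SE 0.10, fold 1.88, adjusted p = 2.67e-08). The responses of Scr and ZIP cells were 0.10 (95% interval -0.10 to 0.31) and 0.02 (-0.18 to 0.23).

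Stat2 was the one member lower in OE without cytokines (-0.42, SE 0.14, adjusted p = 0.0119) and higher with them (0.34 against Scr+Cy, SE 0.13, adjusted p = 0.0261). OE libraries, at most 23.15 CPM, lay below the lowest Scr value of 25.9 CPM. OE+Cy and Scr+Cy overlapped, and the treated call was lost without Scr+Cy replicate 1 (0.24, adjusted p = 0.115), Scr+Cy replicate 4 (adjusted p = 0.0503) or OE+Cy replicate 4 (adjusted p = 0.0882). Stat3 was higher in OE+Cy than in Scr+Cy by 0.25 (SE 0.08, adjusted p = 0.00682), without overlap. Against Scr+Cy all 6 members were called in OE+Cy, 4 higher and 2 lower, where 53.4% of all genes were called, 26.0% higher and 27.4% lower. Without Scr+Cy replicate 1, which also had the most fibroblast and nerve RNA, 3 were called, Stat3, Stat5b and Stat6.

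In ZIP cells few differences from Scr passed the test. Stat5b alone was called, at -0.17 (SE 0.06, adjusted p = 0.0462, against 28.3% of all genes), and it lost the call in 7 of 8 fits that left out a library. With cytokines, Stat3 (-0.22, SE 0.08, adjusted p = 0.0341) and Stat5b (-0.20, SE 0.06, adjusted p = 0.0252) were lower in ZIP+Cy than in Scr+Cy and Stat4 was higher, 3 of 6 beside 28.1% of all genes. The Stat3 groups overlapped, and its call was lost when only these groups were fitted (adjusted p = 0.0905) or when any of 4 libraries was left out. The Stat5b call was kept when only these groups were fitted but was also lost without any of 4 libraries (adjusted p up to 0.0793). For the members not called in ZIP against Scr, the 95% intervals were -0.32 to 0.24 for Stat2, -0.05 to 0.27 for Stat3, -0.29 to 0.05 for Stat5a and -0.26 to 0.15 for Stat6. For Stat4, at 1.33, the interval was -0.84 to 3.49.

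**Figure D4:**
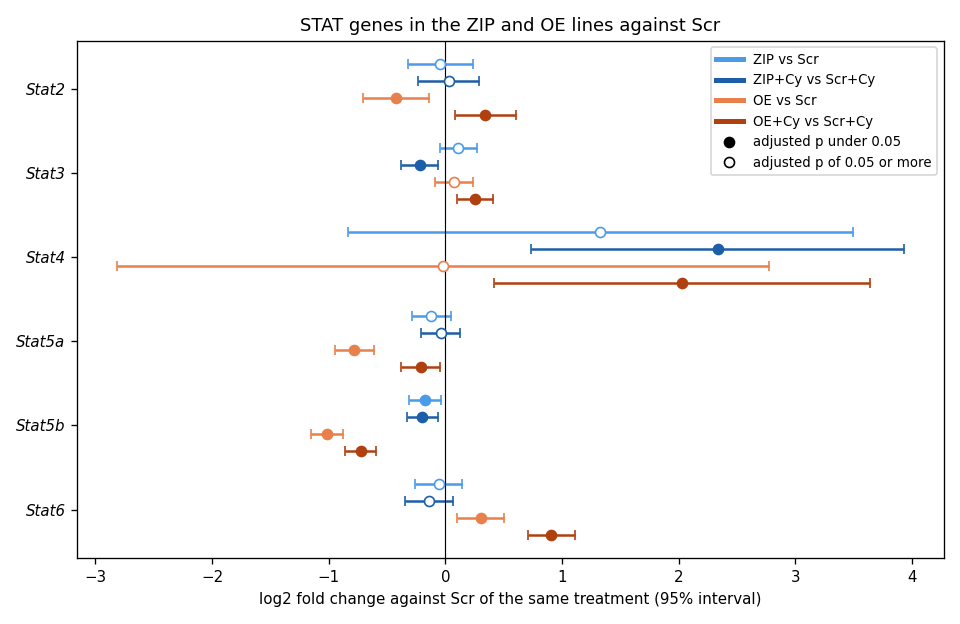
Log2 fold change of each STAT gene in ZIP and OE cells against Scr of the same treatment (x axis), with 95% intervals; filled points passed an adjusted p under 0.05. Stat5a and Stat5b lie left of 0 and Stat6 right of 0 in OE, and the ZIP points lie near 0 except for Stat4, whose intervals are wide.

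Stat4 lay at the limit of detection. It had 2 reads in all 4 Scr libraries together, 5 in ZIP, 2 in OE, 6 in Scr+Cy, 30 for ZIP+Cy and 26 for OE+Cy. Per library this was 0 to 1 read in Scr and OE, 7 to 8 in ZIP+Cy and 2 to 12 in OE+Cy, or at most 0.406 CPM. The ratio to Scr was 17.8 in ZIP+Cy (95% counting interval 4.52 to 154) and 14.4 in OE+Cy (3.61 to 125), and these counting intervals cover counting error only. In Scr+Cy, with a ratio of 3.30 (0.589 to 33.4), a difference was not detectable at this depth. In the edgeR fit Stat4 rose by 2.50 in ZIP (SE 0.79, adjusted p = 0.0214) and by 3.54 in OE (SE 0.90, adjusted p = 0.00218), and the first call was lost without ZIP replicate 2 or 3 (adjusted p = 0.0527 and 0.0578). Against Scr+Cy it was higher by 2.34 in ZIP+Cy (adjusted p = 0.0263) and by 2.03 in OE+Cy (adjusted p = 0.0319), and both calls were lost without Scr+Cy replicate 1 or 3 or when only these groups were fitted. The OE+Cy call was also lost without OE+Cy replicate 2 or 4 (adjusted p = 0.133 and 0.0691). Lymphocyte markers summed to 9.38 to 12.3 CPM in OE+Cy and 1.82 to 3.33 in ZIP+Cy, against 1.87 to 2.39 in Scr and 3.20 to 4.12 in Scr+Cy. Lck reached 12.1 CPM, while Ms4a1 and Cd79a stayed at or under 0.690 CPM, and their part in the Stat4 reads was not tested.

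All comparisons with untreated Scr share its 4 libraries. Of the members, 4 of 6 were called in ZIP+Cy (all genes 40.8%) and 5 of 6 in OE+Cy (59.5%). At the limits the study used, a fold of at least 1.5 and an unadjusted p under 0.05, the members called were 0 in ZIP (all genes 14.9%), 2 in OE (25.7%), 2 for Scr+Cy (10.6%), 3 for ZIP+Cy (21.7%) and 5 for OE+Cy (34.2%).

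The other genes of the pathway were taken from 9 lists. Lists of genes induced through a STAT go by prior knowledge. Whether a change here came through that STAT was not tested. Counts of the lists stand beside 17.8% of all genes called in Scr+Cy against Scr, 28.3% in ZIP and 50.1% in OE. For the cytokine response within a line the share was 26.4% in ZIP and 44.6% in OE. All 4 Janus kinases rose with cytokines in each of the 3 lines. In Scr, Jak3 rose by 1.08 (SE 0.12, adjusted p = 1.42e-07), Jak2, the kinase of the interferon gamma and prolactin receptors, by 0.81 (SE 0.09, adjusted p = 1.57e-07) and Tyk2 by 0.53 (SE 0.08, adjusted p = 2.51e-05). In untreated OE cells 3 of 4 fell, Jak3 by 0.76 and Jak2 by 0.44 on the log2 scale, and the cytokine response of Jak2 was larger in OE than in Scr by 0.86 (SE 0.13, adjusted p = 4.37e-05). In ZIP, Jak2 fell (-0.49, adjusted p = 0.000180) and Tyk2 rose (0.23, adjusted p = 0.0390), a call lost in 4 of 8 fits that left out a library (adjusted p up to 0.144).

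Of 28 receptor chains 25 were listed. With cytokines 8 rose and 1 fell in Scr, led by Il12rb1 (5.61, SE 0.77, from 0.0213 to 1.265 CPM), Il13ra1 (2.73, SE 0.27) and Il15ra (2.19, SE 0.12). These counts were 8 and 0 without Scr+Cy replicate 1. In OE 4 rose and 11 fell before treatment, 15 of 25 where 50.1% of all genes were called. Of the falls, that of Osmr rests on Scr replicate 1, at 1.295 CPM where the other Scr libraries had 0 to 0.0313. Il13ra1, a chain of the interleukin-13 receptor that signals to Stat6, rose by 5.16 (SE 0.24, adjusted p = 1.21e-14), from 0.906 to 32.5 CPM. Cntfr, the receptor of ciliary neurotrophic factor, fell by 3.08 (SE 0.18, adjusted p = 8.94e-13). In ZIP 0 rose and 7 fell, among them Prlr, the prolactin receptor above Stat5a and Stat5b (-0.80, SE 0.22, from 893 to 512.5 CPM, adjusted p = 0.00696), and Il6ra (-1.06, SE 0.28). Leaving out ZIP replicate 4 gave 0 and 6.

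Among 18 inhibitors and phosphatases 5 rose in Scr+Cy and none fell. Socs1, a feedback inhibitor of Janus kinases, rose by 3.77 (SE 0.25, adjusted p = 2.55e-11), Usp18, which dampens interferon receptor signalling, by 2.66 (SE 0.14, adjusted p = 2.72e-13), and Cish, an inhibitor induced by Stat5, by 0.76 (SE 0.13, adjusted p = 0.000122). In OE 3 rose and 7 fell, 10 of 18 where 50.1% of all genes were called, led by Ptpn6, a phosphatase of blood cells (3.26, SE 0.21, from 2.54 to 24.5 CPM), and Usp18 (0.65, SE 0.14). In ZIP 1 rose and 8 fell, with Ptpn6 at -0.74 (SE 0.25) and Socs2 at -0.56 (SE 0.09). The Ptpn6 call was lost in 6 of 8 fits that left out a library (adjusted p up to 0.113). Without ZIP replicate 4 these were 2 and 5.

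Of 9 partners and cofactors 3 rose and 1 fell in Scr+Cy. Irf9, the DNA-binding partner of Stat2, rose by 3.77 (SE 0.11, adjusted p = 3.34e-18), Nmi, which binds several STAT proteins, by 2.72 (SE 0.11) and the kinase Tbk1 by 0.45 (SE 0.06). OE had 1 rise, Nmi (0.38, SE 0.12), and 2 falls, with Stmn1, which binds Stat3, at -0.59 (SE 0.09). ZIP had 0 rises and 2 falls, Stmn1 (-0.32, SE 0.09) and Ep300 (-0.16, SE 0.05), and 1 and 1 without replicate 4. The Ep300 call was lost in 5 of 8 such fits (adjusted p up to 0.132).

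The 15 genes induced through ISGF3, a complex that includes Stat2 and Irf9, all rose with cytokines in each line, with a median log2 fold change of 6.15 in Scr, 5.68 in ZIP and 6.88 in OE. Ifi44 (7.73, SE 0.68), Oas2 (7.23, SE 0.29) and Oasl2 (6.88, SE 0.44) led in Scr. In OE+Cy 14 of 15 were higher than in Scr+Cy (median 1.16) and none was lower, where 26.0% of all genes were higher and 27.4% lower. The response itself was larger in OE for 7 of 15, where 9.64% of all genes had a larger value. Ifit2 is an example, at 2.58 (SE 0.30, adjusted p = 4.33e-06). Before treatment 1 rose and 2 fell in OE, with Irf7 at -0.95 (SE 0.36) and Ifit2 at -0.73 (SE 0.22). The Irf7 call was lost in 4 of 8 fits that left out a library (adjusted p up to 0.0968). In ZIP 1 rose (Oas1a, 1.24, SE 0.44) and 1 fell (Ifit2, -0.79, SE 0.23), with a median of 0.45. The Oas1a call was lost in 4 of 8 fits (adjusted p up to 0.316). Without ZIP replicate 4, the highest untreated library for Irf7 (7.59 CPM), Oas2 (1.38 CPM) and Oasl2 (13.6 CPM), these were 0 and 3 with a median of 0.11.

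Of the 15 listed genes induced through Stat3, 6 rose and 1 fell in Scr+Cy, led by the acute-phase genes Lcn2 (7.23, SE 0.72) and Saa3 (7.12, SE 0.56) and by Bcl3 (2.26, SE 0.11). In OE 8 rose and 2 fell before treatment while Stat3 itself did not pass (0.07, adjusted p = 0.447), and 1 of these falls is that of Osmr. Bcl6 rose by 1.34 (SE 0.27) and Cebpd fell by 2.49 (SE 0.24). In ZIP 2 rose and 5 fell, with Cebpd at -3.58 (SE 0.27) and Bcl6 at 1.28 (SE 0.27). Leaving out ZIP replicate 4 gave 2 and 4.

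Of the 12 listed genes induced through Stat5a and Stat5b, 4 rose and 1 fell in Scr+Cy, with Tph2 at 1.20 (SE 0.18), Pim2 at 1.15 (SE 0.09) and Cish at 0.76. The list median was 0.44, and 0.08 without Scr+Cy replicate 1, where 4 rose and 0 fell. In OE 1 rose, 3 fell and 8 were not called (median -0.12), 4 of 12 where 50.1% of all genes were called. Ccnd2, a cyclin of β cell growth, fell by 0.85 (SE 0.15, adjusted p = 3.11e-05) from 1439 to 801 CPM, and Tph2 fell by 1.07 (SE 0.20). In OE+Cy against Scr+Cy 5 fell and 2 rose (median -0.86), where 53.4% of all genes were called, 26.0% higher and 27.4% lower. In ZIP 2 rose and 6 fell, with Ccnd2 at 1.03 (SE 0.15) and Id1 at -1.04 (SE 0.26). These counts were 2 and 4 without ZIP replicate 4.

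Genes induced through Stat6 were sparse, with 8 of 11 listed and 4 at 1 CPM or more in any group. In Scr+Cy 2 rose, Tgm2 (2.47, SE 0.29) and Cish. In OE 2 rose and 1 fell. Pparg rose by 1.20 (SE 0.17) and Il4ra, the receptor chain that both activates and is induced by Stat6, fell by 2.18 (SE 0.09, adjusted p = 6.51e-16) from 13.2 to 2.92 CPM. The Il4ra response to cytokines was larger in OE than in Scr by 1.66 (SE 0.12, adjusted p = 7.38e-09). In ZIP 1 rose, Cish (0.55, SE 0.13), and 2 fell, with Pparg at -0.91 (SE 0.19). Of 5 listed genes induced through Stat4, 2 rose in Scr+Cy, Il18rap (2.56, SE 0.26) and Gadd45g (0.57, SE 0.11), and 4 rose in OE, with Il18rap at 1.85 (SE 0.26) and Il12rb2 at 1.55 (SE 0.48). In ZIP 1 fell, Il18rap. Stat4 itself had 2 reads over all Scr libraries, 5 in ZIP, 2 in OE and 6 in Scr+Cy, and its part in these changes was not tested.

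The position of 3 members side by side allowed a look at their surroundings. Within 500 kb of Stat5b on either side, 37 genes other than members reached 1 CPM in a group. In OE 10 of them rose and 14 fell, with a median log2 fold change of 0.05 and a range of -3.12 to 0.97. Of all genes 50.1% were called in OE, 24.5% higher and 25.6% lower. This share includes genes under 1 CPM, which were left out of the neighbours, so the sets are not alike. The nearest, Ghdc, stood at -0.00100 (adjusted p = 1.00), and Stat3, beyond Stat5a, at 0.07. Around Stat6 26 genes reached 1 CPM, of which 11 rose and 3 fell in OE (median 0.15, the member 0.30), beside the same 50.1% of all genes, those under 1 CPM included. Nab2, which shares exonic bases with Stat6 on the other strand, rose in OE by 0.59 (adjusted p = 0.00474) and stood at -0.42 (adjusted p = 0.0930) in Scr+Cy.

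**Figure D5:**
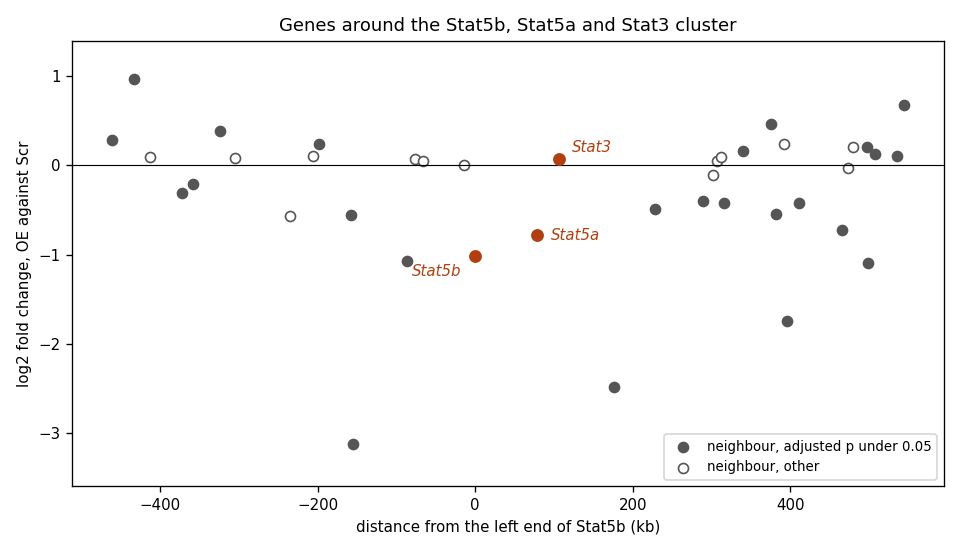
Log2 fold change of OE against Scr (y axis) for the 37 genes within 500 kb of Stat5b that reached 1 CPM, by distance from the left end of Stat5b in kb (x axis), with Stat5b, Stat5a and Stat3 in orange. Stat5b and Stat5a lie at -1.01 and -0.78, Stat3 at 0.07, and the neighbours scatter on both sides of 0.

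Genes with the most similar levels were found by Pearson's r of log2 CPM over the 24 libraries among 12665 genes. These values are a description, and libraries share group and scaling. Stat2 was closest to Irf9 (r = 0.996), Irf1 (0.995) and Psme2b (0.995), and Stat3 to Parp10 (0.993), Tapbpl (0.993) and Oas1b (0.992). Stat5a was closest to Dapk1 (0.950), Sun2 (0.949) and Selenow (0.948), all lowest in OE. For Stat5b the list was Wdr17 (0.984), Kit (0.984) and Arl10 (0.982), also lowest in OE, with Kit at 30.65 CPM in Scr and 1.76 CPM in OE. For Stat6 it was Fam83h (0.9545), Wwp2 (0.9544) and Stk11ip (0.9535), all highest in OE+Cy. Stat4, with few reads, was closest to Col22a1 (0.833), Zdhhc18 (0.8235) and Alas1 (0.818).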

How the data were processed

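The authors aligned reads to mm10 with STAR and quantified RefSeq transcripts in Partek. The labels give STAR 2.7.8a and Partek 11.0.24.0204, which differ from the versions in the study's methods. The smallest total of a gene over all libraries was 10, since genes below that had been taken out. A table the authors deposited holds estimated counts, not normalized (30.1% not whole at a tolerance of 1e-06). The other deposited table holds the signal after division of these counts by 1 median-ratio factor per library, and it served only as a check. Libraries were made with an mRNA kit, and the strand setting of the counting is not given in the sources used here. Expected counts of this kind can divide reads of paralogs between genes.

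The estimated counts were rounded and fitted in edgeR 4.0.16 (R 4.3.3) with TMM scaling, 6 group means and all 24 libraries, and 11 comparisons were tested by glmQLFTest. A gene was called at an adjusted p under 0.05. On simulated counts for OE vs Scr with 17696 genes, 50 genes were changed at each fold, all with a mean of at least 50 reads. Of these, 56% of genes changed 1.25-fold, 74% of those changed 1.5-fold, 94% of those changed 2-fold and 98% of those changed 4-fold were called. In the real comparison far more genes were called (8869), so these rates need not hold there. They do not cover genes with few reads such as Stat4. Standard errors are the log2 fold change divided by the square root of F. No 2 libraries of a group agreed within sampling noise (chi-square per gene at least 7.37). Levels are CPM; reads per library were 26657792 to 37168232, and intervals of reads cover counting error only. Lengths and 3′ regions came from GENCODE M21, windows and the microRNA from RefSeq, matched by symbol (all 6 members matched). No protein sequences were used here.

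Members and lists were chosen with earlier results of these data known. Named beyond the members were, per list, up to 3 called genes with the largest change in Scr+Cy and up to 2 each in ZIP and OE at 1 CPM or more on average in a compared group, and the 3 genes most like each member. Ghdc, Nab2, Apof and genes named for the OE response were chosen after their values were seen. The search for 3′ sites was added after the data were seen. Alternatives were DESeq2 1.42.0, its size factors in edgeR, filterByExpr, only the groups compared, the study's limits, a replicate block and leaving out each library. Replicate numbers 1 to 4 recur in all groups. Over 12670 genes deviations of same-numbered libraries correlated above 0.1 for every number in ZIP vs Scr (0.141 to 0.634), Scr+Cy vs Scr (0.413 to 0.626) and ZIP+Cy vs ZIP (0.261 to 0.397). The same held in OE+Cy vs OE (0.162 to 0.455) and ZIP+Cy vs Scr+Cy (0.191 to 0.37). The main fit held no replicate block, so its p values take the libraries as unpaired. The block was used only as an alternative. The labels also give same-numbered libraries a shared code (P65 to P68), without saying what it marks. 1 item of the table is not reported here.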

Additional observations from a re-analysis of the deposited data

Results flagged for a closer look

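Of 276 groups of 4 libraries (46 genes), 19 held a library whose gap to the nearest of the others was over the 95% critical value of Dixon for its share of the group range, where chance gives about 1 group in 20. The ZIP replicate 1 library stood apart for Stat4 at 0.07318 CPM (others 0.03099 to 0.03647) and Ccnd2 at 3363 CPM (others 2781 to 2833). For Stat4 this was 2 reads against 1 in each other ZIP library, a gap that counting error can give. The Scr+Cy replicate 1 library stood apart for Jak2 at 87.58 CPM (others 108.6 to 111.6), Usp18 at 60.91 CPM (others 84.19 to 88.53) and Nmi at 27.13 CPM (others 35.11 to 36.27). The ZIP replicate 4 library stood apart for Il12rb1 at 0.2016 CPM (others 0 to 0.03099), Oas2 at 1.378 CPM (others 0.3659 to 0.4741), Oasl2 at 13.57 CPM (others 2.086 to 2.944), Lcn2 at 1.546 CPM (others 0.03659 to 0.09298), Saa3 at 0.672 CPM (others 0 to 0.07294), Ep300 at 141 CPM (others 156.2 to 158.3) and Irf7 at 7.593 CPM (others 1.976 to 2.758). The OE replicate 4 library stood apart for Il12rb1 at 0.03275 CPM (others 0), a level at the limit of detection. The Scr+Cy replicate 3 library stood apart for Il12rb1 at 1.956 CPM (others 1.016 to 1.068). The OE replicate 1 library stood apart for Il13ra1 at 42.19 CPM (others 28.78 to 29.96) and Irf9 at 5.682 CPM (others 6.582 to 6.693). The ZIP replicate 3 library stood apart for Cish at 14.41 CPM (others 17.74 to 18.4). The ZIP+Cy replicate 3 library stood apart for Cish at 23.34 CPM (others 29.21 to 30.24) and Prlr at 304 CPM (others 578.1 to 622.4).

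The cytokine response differed between lines by the interaction test of edgeR for these genes. Between Scr and ZIP cells the log2 response changed for Pim2 by 0.9756 (from 1.147 to 2.122, adjusted p = 0.0008964) and Cebpd by 2.074 (from 0.9205 to 2.995, adjusted p = 0.01243). Between Scr and OE cells the log2 response changed for Stat2 by 0.7623 (from 3.051 to 3.813, adjusted p = 0.004803), Stat5a by 0.5671 (from 0.07918 to 0.6463, adjusted p = 0.001077), Stat5b by 0.2871 (from -0.05134 to 0.2357, adjusted p = 0.0296) and Stat6 by 0.6049 (from 0.1038 to 0.7087, adjusted p = 0.002784). In OE it also differed for Jak3 by 0.6763 (from 1.077 to 1.753, adjusted p = 0.005635), Jak2 by 0.8643 (from 0.8139 to 1.678, adjusted p = 4.372e-05), Il13ra1 by -1.315 (from 2.731 to 1.417, adjusted p = 0.005571) and Il15ra by 1.829 (from 2.191 to 4.02, adjusted p = 4.267e-07). Further differences in OE were found for Socs1 by 1.997 (from 3.774 to 5.771, adjusted p = 0.0008708), Irf9 by 0.4127 (from 3.772 to 4.185, adjusted p = 0.04595), Nmi by 0.541 (from 2.724 to 3.265, adjusted p = 0.01284) and Pim2 by -0.6824 (from 1.147 to 0.4642, adjusted p = 0.0006199). The log2 response in OE was different for Prlr by -1.819 (from -0.006839 to -1.826, adjusted p = 0.0002163), Socs2 by -0.6695 (from -0.08815 to -0.7576, adjusted p = 0.0009069), Ifit2 by 2.579 (from 2.685 to 5.265, adjusted p = 4.333e-06) and Cebpd by 2.389 (from 0.9205 to 3.309, adjusted p = 1.251e-05). Others in OE were Bcl6 by 1.261 (from 0.5543 to 1.815, adjusted p = 0.01657), Irf7 by 1.52 (from 5.363 to 6.882, adjusted p = 0.0112) and Il4ra by 1.658 (from 0.04687 to 1.705, adjusted p = 7.379e-09).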

How the results depend on the processing

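With a replicate block, DESeq2, its size factors, filterByExpr or only the groups compared, no member changed direction. Stat4 was removed by filterByExpr, and its OE interaction had no adjusted p with DESeq2. The replicate block changed none of the 66 member calls; of the counts over all genes it moved the one for the ZIP interaction, from 10 to 45, and DESeq2 gave 41 there. The members called in ZIP vs Scr were 0 with DESeq2 size factors in edgeR and 0 with only the groups compared, which also left 1 in ZIP+Cy vs Scr+Cy. At the study's limits the members called were 0 in ZIP vs Scr, 2 in OE vs Scr, 1 in ZIP+Cy vs Scr+Cy, 3 in OE+Cy vs Scr+Cy and 2 in the OE interaction. Over all genes these limits gave 2634 instead of 5013 calls in ZIP vs Scr, 4540 instead of 8869 in OE vs Scr, 1867 instead of 3151 in Scr+Cy vs Scr, 2211 instead of 4674 in ZIP+Cy vs ZIP and 3720 instead of 7884 in OE+Cy vs OE. They gave 2791 instead of 4966 in ZIP+Cy vs Scr+Cy, 5052 instead of 9447 in OE+Cy vs Scr+Cy, 3841 instead of 7212 in ZIP+Cy vs Scr, 6051 instead of 10528 in OE+Cy vs Scr, 583 instead of 10 in the ZIP interaction and 2140 instead of 3537 in the OE interaction. Leaving out 1 library gave 0 to 1 members in ZIP vs Scr, 1 to 2 in ZIP+Cy vs Scr+Cy and 3 to 6 in OE+Cy vs Scr+Cy. Log2 values that changed sign on leaving out 1 library, none of them called, were those of Stat2 in ZIP vs Scr (-0.1151 to 0.03868), ZIP+Cy vs Scr+Cy (-0.07263 to 0.1503) and the ZIP interaction (-0.02983 to 0.1908), Stat4 in OE vs Scr (-0.439 to 0.4628), Stat5a in ZIP+Cy vs Scr (-0.004862 to 0.0857) and ZIP+Cy vs Scr+Cy (-0.08403 to 0.006525), Stat5b in the ZIP interaction (-0.06155 to 0.04441) and Stat6 in ZIP vs Scr (-0.124 to 0.04408), ZIP+Cy vs Scr (-0.1018 to 0.06623) and ZIP+Cy vs ZIP (-0.03644 to 0.09594). The cause was not tested. List counts without ZIP replicate 4 or Scr+Cy replicate 1 were chosen after seeing the data. Depth limits Stat4, with 2 reads in Scr.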
